A study of Mus musculus with 4 samples.

Results

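Transcripts of 10 amino acid transporter genes were compared between carrier-treated and sorafenib-treated mouse liver tumors. The genes are Slc1a4, Slc1a5, Slc3a2, Slc7a2, Slc7a5, Slc7a11, Slc38a1, Slc38a2, Slc38a3 and Slc38a4. They were chosen by symbol and not by a cutoff on their values, but with earlier results of these data known. Each symbol matched 1 row among the 39179 genes in the deposited tables. The design asks how mRNA levels of the tumors differ between the treatments. All mice carried the same genetics: C57BL/6 wild-type animals in which transposons encoding Myc and the activated NrasG12V were put into hepatocytes by hydrodynamic injection. Carrier mice (2 libraries) received the vehicle, and sorafenib mice (2 libraries) received sorafenib, an oral inhibitor of RAF kinases and of several receptor tyrosine kinases, in both cases for 3 weeks with a dose every second day. The labels give no age, and they do not say whether the 2 libraries of a group came from separate mice, so p-values measure only the spread between these libraries. Tumor pieces were sequenced whole, so a library holds tumor cells together with whatever other liver cells the piece contained.

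Amino acid transporters belong to families with distinct exchange rules. The SLC7 light chains LAT1 (Slc7a5) and xCT (Slc7a11) reach the cell surface only when joined to the heavy chain that Slc3a2 encodes. They swap an intracellular amino acid for an external one, whereas the SLC38 carriers use the sodium gradient to take up glutamine, alanine and related amino acids. Liver cells take up amino acids for gluconeogenesis, urea synthesis and protein synthesis, and many transporter genes are induced through the transcription factor ATF4 when amino acids run short.

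The best-described ATF4 binding sequence, the amino acid response element, was searched in the RefSeq promoter table (GRCm38.p6, from 250 bases before to 50 bases after the start of transcription). The letters searched were TGATGNAA on either strand, which reads TTNCATCA on the other strand. The table held 7 promoters of 5 of the 10 genes (Slc1a4, Slc3a2, Slc7a11, Slc38a2 and 3 start sites of Slc38a4). Slc1a4 held 1 match, which began 4 bases before its start site, and Slc7a11 held 2, which began 66 and 47 bases before its start site. Among all 32851 promoters of the table, 3.97% held a match. Both promoters are printed because they are the ones with a match, shown in capitals in the sequences. As described below, the treatment groups separated for Slc1a4 and overlapped for Slc7a11.
Slc1a4 promoter, chr11:20332664-20332963, minus strand: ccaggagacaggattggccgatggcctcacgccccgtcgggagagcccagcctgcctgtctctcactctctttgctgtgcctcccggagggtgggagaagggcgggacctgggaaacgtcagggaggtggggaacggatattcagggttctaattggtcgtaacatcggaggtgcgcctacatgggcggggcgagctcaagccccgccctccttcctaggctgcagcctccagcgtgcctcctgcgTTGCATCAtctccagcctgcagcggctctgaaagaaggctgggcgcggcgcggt
Slc7a11 promoter, chr3:50443564-50443863, minus strand: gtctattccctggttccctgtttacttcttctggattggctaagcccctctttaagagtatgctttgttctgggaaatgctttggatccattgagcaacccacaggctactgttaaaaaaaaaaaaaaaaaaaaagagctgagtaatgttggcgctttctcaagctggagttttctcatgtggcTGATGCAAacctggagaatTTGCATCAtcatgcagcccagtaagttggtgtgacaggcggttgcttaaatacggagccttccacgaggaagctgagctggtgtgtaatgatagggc
The E-box CACGTG, a sequence bound by MYC, was in 7.15% of all promoters and in none of the 7. The letters TGACNNNGC of the antioxidant response element, bound by NRF2, were in 12.4% of all promoters and, among the 7, in that of Slc38a2, 27 bases before the start site. A match describes letters only, and no binding was measured.

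Before any comparison, the second sorafenib library stood apart. The sorafenib libraries differed from each other far more than the carrier libraries did (chi-square per degree of freedom of 40.9 against 9.09). Hepatocyte markers were high in every library, with summed values between 106404 and 145904 CPM (counts per 1000000 reads) over 9 genes, as the liver label has it. Oncofetal tumor genes (8 genes, among them Afp, H19 and Gpc3) summed to 38232 and 33127 CPM in the carrier libraries, to 15224 CPM in sorafenib replicate 1 and to 90.2 CPM in sorafenib replicate 2. Proliferation genes (8 genes) summed to 178, 170, 109 and 5.91 CPM in the same order. The driver transcripts followed the same order: Myc was at 70.6, 78.1, 28.8 and 15.8 CPM, and Nras at 88.3, 83.4, 47.0 and 22.1 CPM. Whether reads of the injected transposons count toward either gene was not given in the sources used here. Each transporter is therefore given for both sorafenib libraries together and for each alone, the value for 1 being the value without the other. In bulk tissue, fewer tumor cells and less RNA per tumor cell cannot be told apart. Depth was between 4067427 and 5932939 reads, and 3 reads, taken as the limit for a count of 0, equalled 0.506 to 0.738 CPM.

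Of the 10 transporters, 4 had both sorafenib values above both carrier values (Slc7a2, Slc38a2, Slc38a3 and Slc38a4), 5 had both below (Slc1a4, Slc1a5, Slc3a2, Slc7a5 and Slc38a1), and Slc7a11 overlapped. No member passed the threshold: limma called 0 of the 13149 genes tested (0.0%) at an adjusted p of 0.05, and "higher" and "lower" below describe library values only. At an unadjusted p below 0.05, 2 members were higher (Slc38a3 and Slc38a4) and 3 lower (Slc1a5, Slc7a5 and Slc38a1), while 2529 genes in all reached that level, 6.36% of those tested being higher and 12.9% lower. Of all tested genes, 17.5% lay wholly above and 41.3% wholly below the carrier values, so a separation in the lower direction was common in these libraries. The deposited CPM carry no further scaling, and over all tested genes the median log2 change was -0.26. TMM factors, which scale libraries by the bulk of their genes, moved that median to -0.04, and upper-quartile factors moved it to -0.09. With TMM factors, 4 members lay above and 4 below, as did 27.2% and 29.2% of all genes. With upper-quartile factors, 4 members lay above and 5 below, as did 24.5% and 31.7% of all genes. Relative to the all-gene median, the log2 fold changes of the 4 higher members were 0.68 to 1.10, and those of the other 6 were -1.17 to -0.15.

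**Figure D1:**
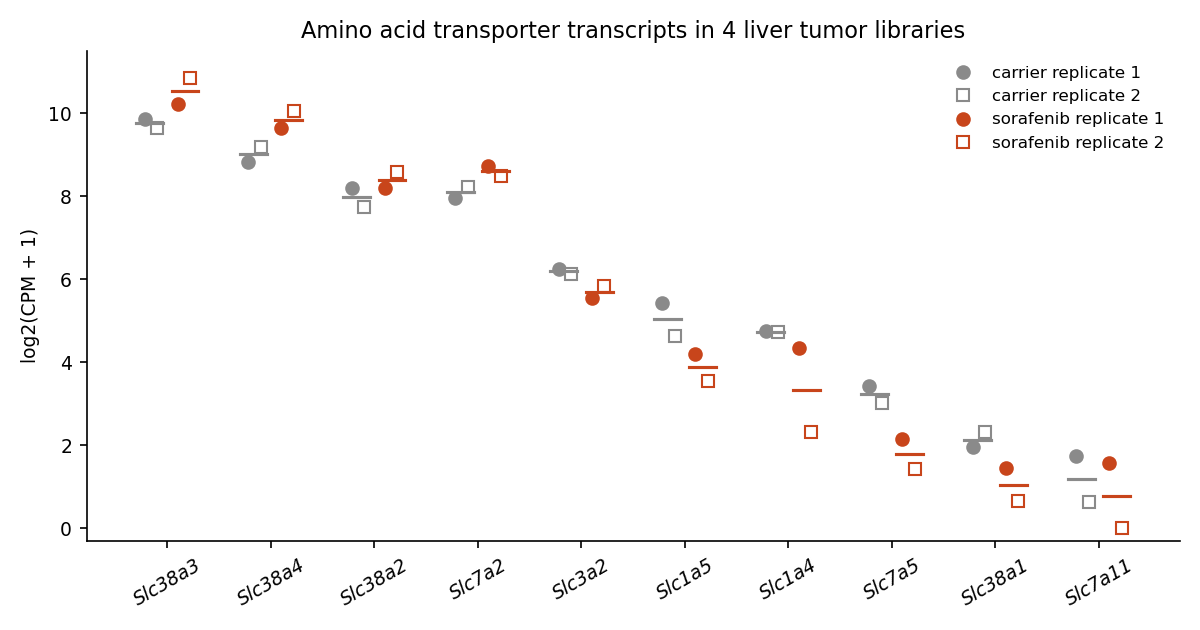
Level of each transporter in each library on the log2(CPM + 1) scale, ordered roughly by level. Grey marks are carrier and red marks sorafenib libraries, circles replicate 1 and squares replicate 2, and lines mark the group means. The 4 transporters at the left have both sorafenib marks above both carrier marks, 5 of the other 6 have both below, and the marks of Slc7a11 overlap.

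Slc38a3 encodes SNAT3, a system N carrier that moves glutamine, histidine and asparagine in exchange for protons and is abundant in liver. Its gene (ENSMUSG00000010064) lies at chr9:107650634-107669530 on GRCm38. Carrier replicates 1 and 2 held 933 and 794 CPM, and sorafenib replicates 1 and 2 held 1192 and 1832 CPM. Both sorafenib values were above both carrier values, and sorafenib replicate 2 was well above replicate 1. The means were 1512 ± 452 CPM against 863 ± 98.6 CPM (SD, n = 2 each), a ratio of 1.75, and the log2 fold change was 0.78 (SE 0.30, limma adjusted p = 0.258). Replicate 1 alone gave 0.47 and replicate 2 alone 1.09.

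Slc38a4 encodes SNAT4, a sodium-coupled carrier of neutral and cationic amino acids that is expressed mainly in liver. Its gene (ENSMUSG00000022464) lies at chr15:96994820-97055956. The carrier libraries were at 453 and 578 CPM, and the sorafenib libraries at 793 and 1062 CPM. The lowest sorafenib value was clear of the highest carrier value. Means of 927 ± 190.0 CPM and 516 ± 88.5 CPM (SD, n = 2 each) gave a ratio of 1.80, and the log2 fold change was 0.84 (SE 0.27, limma adjusted p = 0.243), the highest of the 10. It was 0.63 with replicate 1 alone and 1.05 with replicate 2 alone. Slc38a4 was the only member that DESeq2, run on the recovered reads, called with all 4 libraries (log2 fold change 1.15, adjusted p = 0.0475). DESeq2 called 3.42% of all tested genes higher and 0.365% lower. It gave no adjusted p for Slc38a1 and Slc7a11.

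Slc38a2 encodes SNAT2, the system A carrier whose transcription and surface level increase in many cells when amino acids are withdrawn. Its gene (ENSMUSG00000022462) lies at chr15:96687392-96699730. Carrier libraries held 291 and 213 CPM, and sorafenib libraries 294 and 381 CPM. Groups were separated by a narrow margin, since sorafenib replicate 1 and carrier replicate 1 were almost level. The log2 fold change was 0.42 (SE 0.26, limma adjusted p = 0.370), from means of 338 ± 61.8 CPM and 252 ± 55.1 CPM (SD, n = 2 each), and it was 0.24 and 0.61 for the sorafenib libraries taken alone.

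Slc38a1 encodes SNAT1, the system A carrier of brain and many other tissues, which takes up glutamine. The gene (ENSMUSG00000023169) lies at chr15:96571418-96642913. It was rare here, with 17 and 21 reads in carrier tumors (2.87 and 3.96 CPM) against 7 and 3 reads in sorafenib tumors (1.72 and 0.572 CPM). All 4 values were low, and the sorafenib values were the lower ones. The exact 95% Poisson interval of the 3 reads in sorafenib replicate 2, which covers counting error only, ran from 0.118 to 1.67 CPM, which touched the lower bound of carrier replicate 1 (1.67 CPM) and stayed below that of carrier replicate 2 (2.45 CPM). The log2 fold change was -1.08 (SE 0.42, limma adjusted p = 0.258), and it was -0.69 and -1.48 for the sorafenib libraries alone.

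Slc38a1, Slc38a2 and Slc38a4 lie side by side. GENCODE M21 places all 3 on the minus strand of chromosome 15 within 484.5 kb, separated by 44.5 kb and 295.1 kb, and they are the only 3 protein-coding genes among the 7 annotated there. The neighbors differed in level and direction: in each sorafenib library Slc38a2 and Slc38a4 were above, and Slc38a1 below, both carrier values. Per kilobase of exon, Slc38a4 stood at 640 and 590 times Slc38a1 in the carrier libraries and at 1864 and 7512 times in the sorafenib libraries. The denominators of the last pair rest on 7 and 3 reads. The separation of this ratio follows from the opposite directions of Slc38a4 and Slc38a1, and is not a further result. The ratio of Slc38a2 to Slc38a4 per kilobase was 0.310 and 0.178 in the carrier and 0.179 and 0.173 in the sorafenib libraries, so only carrier replicate 1 stood apart.

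Slc7a2 encodes CAT-2, a carrier of arginine, lysine and ornithine whose low-affinity form is typical of liver. Its gene (ENSMUSG00000031596) lies at chr8:40862396-40922308. It was at 249 and 296 CPM in carrier and at 425 and 356 CPM in sorafenib libraries. The groups did not overlap, and this was the only one of the 4 higher members in which sorafenib replicate 1 was above replicate 2. Means were 391 ± 48.4 CPM and 272 ± 33.3 CPM (SD, n = 2 each), a ratio of 1.43, and the log2 fold change was 0.52 (SE 0.22, limma adjusted p = 0.265). The values for replicates 1 and 2 alone were 0.65 and 0.39. Antisense to it lies Gm26584, which was at most at 0.381 CPM.

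Slc3a2 encodes the CD98 heavy chain, the shared partner of 6 SLC7 light chains. Its gene (ENSMUSG00000010095) lies at chr19:8706882-8723369. Carrier tumors held 75.0 and 68.9 CPM, sorafenib tumors 45.5 and 56.4 CPM. Sorafenib values were below carrier values on the CPM scale, but the groups overlapped once TMM factors were applied. The log2 fold change was -0.50 (SE 0.23, limma adjusted p = 0.283). Relative to the all-gene median it was -0.24 and ranged from -0.55 to 0.05 over the alternatives, so no direction relative to other genes is given. Unlike the other lower members, Slc3a2 was lower in sorafenib replicate 1 (-0.65) than in replicate 2 (-0.34).

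Slc7a5 encodes LAT1, the exchanger that brings in leucine and other large neutral amino acids and is widely raised in tumors. The gene (ENSMUSG00000040010) lies at chr8:121881150-121907694. Carrier tumors held 9.78 and 7.17 CPM, sorafenib tumors 3.44 and 1.72 CPM, the last 2 resting on 14 and 9 reads. Both sorafenib libraries were below both carrier libraries. Mean values were 2.58 ± 1.22 CPM against 8.47 ± 1.84 CPM (SD, n = 2 each), with the carrier mean 3.29 times the sorafenib mean. The log2 fold change was -1.43 (SE 0.42, limma adjusted p = 0.240), the lowest of the 10, and -1.08 and -1.79 for replicates 1 and 2 alone. The antisense gene Gm20388 was at 0 in all 4 libraries.

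Slc7a11 encodes xCT, which imports cystine in exchange for glutamate and so feeds glutathione synthesis. The gene (ENSMUSG00000027737) lies at chr3:49892526-50443614. Carrier tumors gave 14 and 3 reads and sorafenib tumors 8 and 0 reads, that is 2.36, 0.566, 1.97 and 0 CPM. The groups overlapped, and replicates of 1 treatment differed more than the treatments did. A difference between treatments was not detectable at this depth (log2 fold change -0.41, SE 0.64, limma adjusted p = 0.719). The direction turned with the library used, at 0.37 for sorafenib replicate 1 alone and -1.20 for replicate 2 alone. Unlike Slc1a4, which shares its promoter match, Slc7a11 showed no separation of groups. The symbols of the 5 genes annotated over Slc7a11 on either strand matched no row, so no values are given for them.

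The heavy chain was in excess of its listed light chains per kilobase of exon in every library. Slc3a2 stood at 1.73 and 2.20 times the sum of Slc7a5, Slc7a6, Slc7a7, Slc7a8, Slc7a10 and Slc7a11 in the carrier libraries and at 2.52 and 12.0 times in the sorafenib libraries. Against Slc7a5 and Slc7a11 alone it stood at 7.57 and 9.88 times, then at 12.1 and 34.6 times. These ratios within a library do not depend on scaling. Both sorafenib ratios were above both carrier ratios, with the wide step coming from sorafenib replicate 2. In that library the light chains had few reads: 9 of Slc7a5, 4 of Slc7a6, 9 of Slc7a7 and 5 of Slc7a8. Slc7a10 and Slc7a11 had 0 reads there. Among the other light chains, Slc7a7, which exports cationic amino acids in exchange for neutral ones, was at 23.4 and 16.4 CPM in carrier and at 9.83 and 1.72 CPM in sorafenib libraries.

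Slc1a5 encodes ASCT2, a sodium-dependent exchanger that supplies glutamine to many proliferating cells. Its gene (ENSMUSG00000001918) lies at chr7:16781340-16798274. Carrier libraries held 41.8 and 24 CPM and sorafenib libraries 17.5 and 10.7 CPM. The groups did not overlap, although the carrier libraries were themselves apart. Means were 14.1 ± 4.80 CPM against 32.9 ± 12.6 CPM (SD, n = 2 each), the carrier mean being 2.34 times the sorafenib mean, and the log2 fold change was -1.15 (SE 0.39, limma adjusted p = 0.25). For replicates 1 and 2 alone it was -0.82 and -1.49. Per kilobase, Slc38a3 was 17.7 and 26.2 times as abundant as Slc1a5 in the carrier libraries and 54.0 and 136 times in the sorafenib libraries. That separation follows from Slc38a3 lying above and Slc1a5 below the carrier values, and is not a further result.

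Slc1a4 encodes ASCT1, an exchanger of alanine, serine and cysteine, and is induced through ATF4 in many cells. Its gene (ENSMUSG00000020142) lies at chr11:20302180-20332713. The carrier libraries nearly coincided at 25.8 and 25.5 CPM, while the sorafenib libraries were at 19.2 and 4.0 CPM. Sorafenib replicate 2 was far below the other 3 libraries, and replicate 1 was below the carriers by a smaller step. The log2 fold change was -1.41 (SE 0.64, limma adjusted p = 0.278). It was -0.40 with replicate 1 alone and -2.41 with replicate 2 alone, so its size came mostly from 1 library.

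Leaving out sorafenib replicate 1 changed the calls more than any other alternative. With sorafenib replicate 2 as the lone sorafenib library, limma called 7 members: Slc38a2, Slc38a3 and Slc38a4 higher (log2 fold changes 0.61, 1.09 and 1.05) and Slc1a4, Slc1a5, Slc7a5 and Slc38a1 lower (-2.41, -1.49, -1.79 and -1.48). Its spread is assumed in that fit to equal that of the carrier pair, and 9.34% of all tested genes were called higher and 29.8% lower. Without sorafenib replicate 2, limma called no member, of 398 genes called in all.

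**Figure D2:**
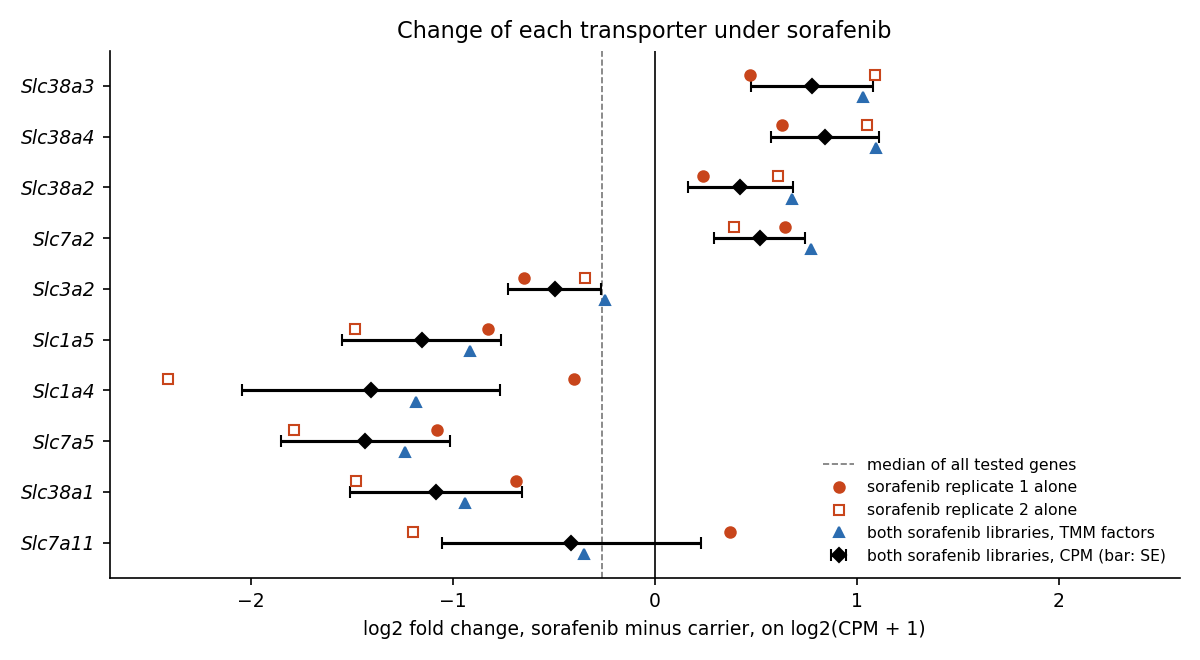
Log2 fold change of each transporter, sorafenib minus carrier, on log2(CPM + 1). Black diamonds with bars are both sorafenib libraries (bar: SE), red marks each sorafenib library alone, blue triangles the same fit with TMM factors, and the dashed line the median of all tested genes (-0.26). The 2 red marks lie on opposite sides of 0 for Slc7a11 and on 1 side of 0 for the other 9 genes.

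Levels were compared between genes only as CPM per kilobase of the gene's exons. In carrier tumors the order of the means was Slc38a3 (164), Slc38a4 (121), Slc7a2 (29.8), Slc38a2 (28.5), Slc3a2 (20.4), Slc1a5 (7.88), Slc1a4 (6.53), Slc7a5 (2.28), Slc38a1 (0.198) and Slc7a11 (0.105 CPM per kilobase). The neighbors Slc7a2 and Slc38a2, Slc1a5 and Slc1a4, and Slc38a1 and Slc7a11 overlapped in their libraries, and the other neighbors did not. In sorafenib tumors the first 8 kept this order, at 287, 218, 42.8, 38.2, 14.4, 3.37, 2.95 and 0.695 CPM per kilobase, and Slc38a3 and Slc38a4 overlapped as well. The 4 genes that led the order in carrier tumors were the 4 that lay above the carrier libraries under sorafenib. With the length of the principal transcript in place of all exons, Slc7a2 and Slc38a2 traded places in both groups.

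The make-up of the 10 transporters was given by each gene's share of their summed level. Slc38a3 and Slc38a4 together made up 73.7% and 76.0% of the summed CPM per kilobase in the carrier libraries and 80.0% and 85.4% in the sorafenib libraries. Adding Slc38a2 and Slc7a2 brought the shares to 89.4% and 91.0%, then to 95.5% and 97.1%. The other 6 transporters held 10.6% and 9.01% in carrier tumors and 4.49% and 2.87% in sorafenib tumors. The groups did not overlap for any of these 3 sums, which are not separate results. The share of the other 6 is what the sum with Slc38a2 and Slc7a2 leaves over. That sum holds exactly the members with both sorafenib values above both carrier values, so its separation follows from how it was grouped. Slc38a3 and Slc38a4 are among the same members. The shares are of transcripts and say nothing of transport.

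**Figure D3:**
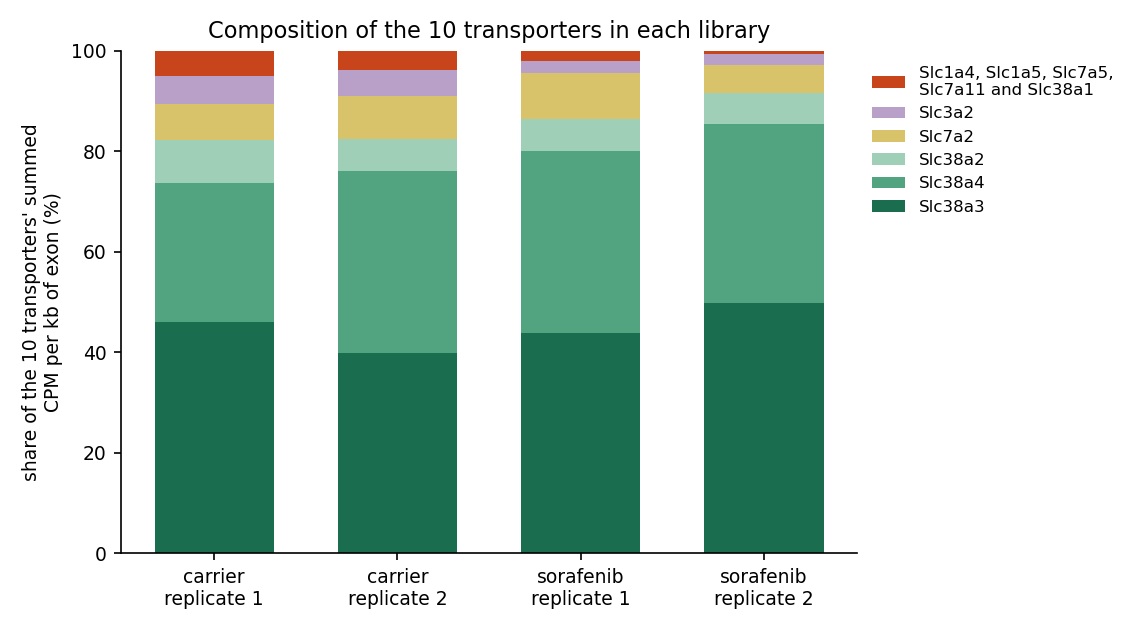
Share of each transporter in the summed CPM per kilobase of exon of the 10 genes, 1 bar per library, each adding to 100%. The green segments at the bottom (Slc38a3 and Slc38a4) widen from 73.7% and 76.0% in the carrier bars to 80.0% and 85.4% in the sorafenib bars.

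Other amino acid transporters were read from 6 family lists of 46 genes, of which 26 were tested and 10 were at 0 in every library. None passed the threshold. Of the 26, 8 were higher and 18 lower in sorafenib, 4 lay above and 13 below the carrier libraries, and the median log2 fold change was -0.47, against -0.26 for all tested genes and -0.45 for the 10 members. On CPM these counts are near those of all tested genes, of which 32.2% were higher, 17.5% above and 41.3% below. At an unadjusted limma p below 0.05, 3 of the 26 were higher and 7 lower, against 6.36% and 12.9% of all tested genes. With TMM factors 6 lay above and 11 below, against 27.2% and 29.2%. The 4 above on CPM were Slc1a2, Slc6a12, Slc16a10 and, by a trace, Slc38a9. Slc1a2, a glutamate carrier of pericentral hepatocytes, was at 70.5 and 58.5 CPM in carrier and at 153 and 182 CPM in sorafenib libraries (log2 fold change 1.37, SE 0.22, limma adjusted p = 0.240). Slc16a10, which carries aromatic amino acids, was at 37.2 and 32.4 CPM, then at 61.2 and 85.2 CPM.

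The cationic carrier Slc7a1, the widespread counterpart of Slc7a2, was at 14.8 and 10.6 CPM in carrier and at 9.34 and 0.381 CPM in sorafenib libraries, below where Slc7a2 was above. Slc7a4, another gene of that branch, was at 8.76 and 4.53 CPM, then at 1.72 and 0 CPM. Among the other SLC38 genes, Slc38a10 was at 165 and 143 CPM in carrier and at 81.1 and 57.2 CPM in sorafenib libraries (log2 fold change -1.16, SE 0.25, limma adjusted p = 0.240). Slc38a7 and Slc38a9, which act at the lysosome, were within 24.8 to 29.4 CPM and 19.2 to 22.9 CPM.

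**Figure D4:**
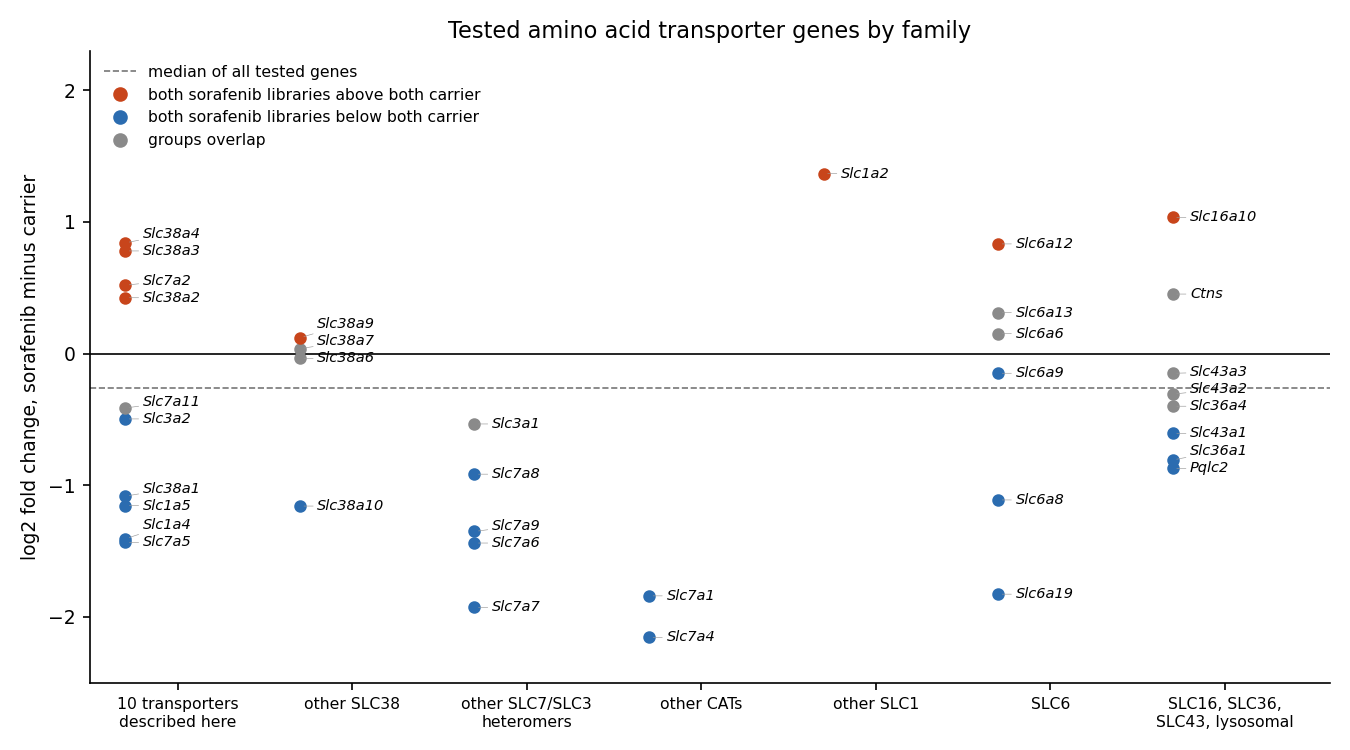
Log2 fold change, sorafenib minus carrier, of the 10 transporters (left column) and of the 26 other tested amino acid transporter genes by family. Red points have both sorafenib libraries above both carrier libraries, blue points both below, grey points overlap, and the dashed line is the median of all tested genes. The points of the 10 transporters run from -1.43 to 0.84 and those of the others from -2.16 to 1.37.

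Genes of the ATF4 response were counted because ATF4 is known to induce Slc7a11, Slc7a5, Slc3a2, Slc1a4, Slc1a5 and Slc38a2 in many cells. None of the 20 listed genes passed the threshold; 4 were higher and 16 lower, 3 lay above and 10 below the carrier libraries, and the median log2 fold change was -0.54 (-0.31 with TMM factors). Of all tested genes, 32.2% were higher, 17.5% lay above and 41.3% below, with a median of -0.26. On CPM the list's counts of direction are near these shares. At an unadjusted limma p below 0.05, 1 listed gene was higher and 8 lower, against 6.36% and 12.9% of all tested genes. With TMM factors 3 lay above and 9 below, against 27.2% and 29.2%, and the all-gene median was -0.04. On CPM the listed log2 fold changes ran from -4.30 to 1.02. Atf4 itself was at 187 and 159 CPM in carrier and at 163 and 108 CPM in sorafenib libraries, which overlap. Nupr1, a stress-induced cofactor, was at 9.27 and 8.11 CPM, then at 1.48 and 0.572 CPM, and Eif2ak3, the kinase PERK, at 35.1 and 37 CPM, then at 17.5 and 16 CPM. Cebpb, a transcription factor of the same response, went the other way, at 75.0 and 69.0 CPM, then at 144 and 151 CPM. The 3 above were Cebpb, Chac1 and Shmt2. Asns, asparagine synthetase, named after its values were seen, was at 105 and 76.8 CPM in carrier and at 34.7 and 0.381 CPM in sorafenib libraries. Like Slc1a4, it was far lower in sorafenib replicate 2 than in replicate 1, as were the summed oncofetal and proliferation genes.

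A list of genes for cysteine supply, glutathione synthesis and use, and the NRF2 response held 14 members, all tested and none past the threshold. In this list 9 were higher and 5 lower (Gss, Ggt1, Gpx4, Keap1 and Srxn1), 6 lay above and 1, Gss, below, and the median log2 fold change was 0.13, where 32.2% of all tested genes were higher, 17.5% above and 41.3% below. With TMM factors 11 were higher and 3 lower, 9 lay above and 0 below, and the median was 0.38. Of all tested genes, 27.2% then lay above and 29.2% below, with a median of -0.04. The share of all tested genes that were higher with TMM factors is not given here. Cbs and Cth, which make cysteine from methionine and so bypass xCT, were at 195 and 195 CPM and at 102 and 144 CPM in carrier libraries. In sorafenib libraries they were at 325 and 351 CPM and at 180 and 263 CPM. Nfe2l2, which encodes NRF2, an inducer of Slc7a11, was at 104 and 124 CPM, then at 128 and 149 CPM.

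Markers of other cells and of liver zones were read beside these values, and not all of them differed between the groups. Pericentral hepatocyte genes (9 genes, 7 above the carrier libraries) summed to 2167 and 2486 CPM in carrier and to 6440 and 8166 CPM in sorafenib libraries, and periportal genes (9 genes, 7 above and 2 below) to 3438 and 3595 CPM, then to 5885 and 10647 CPM. Macrophage genes (9 of 9 below) went from 308 and 355 CPM to 165 and 75.9 CPM. Endothelial genes (5 of 8 below) went from 190.1 and 229 CPM to 163 and 62.3 CPM. Stellate cell genes (5 of 8 below) went from 381 and 580 CPM to 274 and 211 CPM. Of all tested genes, 17.5% lay above and 41.3% below the carrier libraries. With TMM factors 9 macrophage, 4 endothelial and 5 stellate cell genes lay below, against 29.2% of all tested genes. Then 7 pericentral and 7 periportal genes lay above, against 27.2%, and 2 periportal genes lay below. Neutrophil genes summed to 26.0, 28.1, 21.4 and 5.91 CPM, with Ly6g at 0 in all libraries. T and NK cell genes held 10.5 to 17.2 CPM, B cell genes 4.34 to 7.62 CPM and biliary genes 106 to 672 CPM, of which Spp1 alone held 96.1 to 657 CPM. The liver-enriched transporters Slc38a3, Slc38a4 and Slc7a2 differed in the direction of most zonal hepatocyte genes. Slc1a4, Slc1a5, Slc7a5 and Slc38a1 differed in that of the oncofetal, proliferation and macrophage genes. This lower direction was also that of most tested genes, 8920 of 13149. Slc38a2 also lay above the carrier libraries, and Slc3a2 lay below them on CPM. The general hepatocyte genes were split, with 4 of 9 above and 3 below (Alb, Apoa1 and Fgb), and their sum was lower in sorafenib libraries (118034 and 106404 CPM) than in carrier libraries (131376 and 145904 CPM). The part of cell composition in the transporter values was not tested.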

How the data were processed

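Poly(A) mRNA of 4 mouse liver tumor libraries (2 carrier, 2 sorafenib) was sequenced single-end with 75 cycles from a stranded kit, starting from 100 ng of total RNA, per the labels' protocols. The submitters' processing notes name the build GRCm38 and, with no role stated, STAR 2.6.1c, Subread 1.6.3 and edgeR 3.22.5. Not given in the sources used here are how counting treated strand and multiply matching reads, so antisense and overlapping genes are uncertain.

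The authors deposited CPM for 39179 genes. Every value above 0 was a whole multiple of 1 step (within 0.01 for 100% of values), which recovered whole reads: 5932939 and 5300806 for carrier, and 4067427 and 5246530 for sorafenib replicates 1 and 2. Groups came from the labels. The main test was limma 3.58.1 (R 4.3.3) on log2(CPM + 1), with a pseudocount of 1, empirical Bayes moderation with a trend, and Benjamini-Hochberg adjustment over the 13149 genes that reached 1 CPM in 2 or more libraries. A log2 fold change on this scale understates the change of low genes. edgeR 4.0.16 and DESeq2 1.42.0 ran on the recovered reads as alternatives; edgeR's quasi-likelihood test called 0 genes and DESeq2 498. Scripts were tested on simulated data. Annotation came from GENCODE M21 and promoters from RefSeq. Of 212 list symbols, 210 matched. Named were the 10 transporters, Myc, Nras, Atf4 and Nfe2l2, genes needed to say what a short count holds, and, from each pathway list, genes among the 2 with the smallest p in each direction. Family relatives of the members and Asns were named after their values were seen. The transporters and the lists were chosen with earlier results of these data known. Replicate reads differed by more than sampling noise, so each library was counted once. Intervals cover counting error only.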

Additional observations from a re-analysis of the deposited data

How the results depend on the processing

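Over 12 alternatives for each of the 10 transporters (pseudocount 0.25, no filter, TMM and upper-quartile factors, edgeR, DESeq2, no trend, the replicate block and each library left out), 110 of 120 values kept their direction and their side of the threshold, and 9 transporters kept their sign in all 12. A further 8 values passed the threshold only under the alternative, 7 of them without sorafenib replicate 1 and 1, Slc38a4, with DESeq2. Slc7a11 reversed, to 0.14 without carrier replicate 1 and to 0.37 without sorafenib replicate 2, in a range of -1.20 to 0.37, and the cause was not tested. The number of genes called was 0 in the main test and 498 with DESeq2 (450 higher, 48 lower, with 2040 genes given no adjusted p). Slc7a11 and Slc38a1 were among those 2040 genes, and their DESeq2 values were counted above as not passing the threshold. Leaving out 1 library gave between 0 and 5149 calls, with 5149 without sorafenib replicate 1, 398 without sorafenib replicate 2 and 0 without either carrier library. The lone library left in a group is then assumed to vary like the other group. With the replicate block, 0 genes were called (smallest adjusted p 0.0839, against 0.136 without it). The replicate numbers mark no shared animal or day in the labels, and the deviations of same-numbered libraries correlated at 0.150, a single value. Of 252 list medians, 47 moved by over the spread between libraries, and 12 changed sign, in 4 of 21 lists, none of them the ATF4 or the glutathione list. Depth limits Slc7a11 and Slc38a1, which rest on 0 to 21 reads per library.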

Other observations

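Genes that sense amino acids for mTORC1, the kinase that leucine and arginine activate, held 24 tested genes, and none passed the threshold. Of these, 8 were higher and 16 lower, where 32.2% of all tested genes were higher. The median log2 fold change was -0.16 on CPM, against -0.26 for all tested genes. TMM factors put 14 higher and 10 lower, with a median of 0.08, against -0.04 for all tested genes. Rragd, a Rag GTPase that helps recruit mTORC1 to the lysosome, was at 5.90 and 9.24 CPM in carrier and at 1.97 and 2.10 CPM in sorafenib libraries. Rraga, another Rag GTPase, was at 52.1 and 44.7 CPM, then at 26.8 and 28.0 CPM. Lamtor5, part of the Ragulator anchor, was at 16.3 and 18.5 CPM, then at 23.1 and 23.4 CPM.

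Enzymes that use glutamine, arginine and leucine held 15 tested genes, 9 higher and 6 lower, with 9 above and 5 below the carrier libraries and a median log2 fold change of 0.33, where 32.2% of all tested genes were higher, 17.5% above and 41.3% below. With TMM factors 12 were higher and 3 lower, 10 lay above and 3 below, and the median was 0.59. Of all tested genes, 27.2% then lay above and 29.2% below, with a median of -0.04. None passed the threshold. Ass1, a urea cycle enzyme, was at 252 and 236 CPM in carrier and at 572 and 830 CPM in sorafenib libraries, and Got1, the cytosolic aspartate aminotransferase, at 122 and 95.3 CPM, then at 268 and 226 CPM. Odc1, which starts polyamine synthesis from ornithine, was at 51.1 and 37.7 CPM, then at 21.1 and 10.3 CPM. Some lists share genes, so their counts are not separate results. Glul was also counted as pericentral, and Gls2, Arg1 and Ass1 as periportal, all of them above the carrier libraries. Slc1a2 was counted both as a transporter and as pericentral.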
